A study of Mus musculus with 6 samples.

Results

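The genes described here carry the symbols of the initiation and elongation factors of cytoplasmic translation, and were measured by RNA-Seq in motor neurons (MNs) made from mouse embryonic stem cells (mESCs). The members are the gene symbols that begin with Eif1 to Eif6 or with Eef1 or Eef2, without Eif2s3x and Eif2s3y. The rule found 70 symbols in 69 of the 41945 rows of the authors' deposited table. Levels are in FPKM, mapped fragments scaled to exon length and to library size, and comparison between genes is limited by shared sequence, as described below. At least 1 FPKM in either genotype was reached by 67 of the 69 rows. Of these 67, 57 are protein-coding translation factors whose row holds no other protein-coding gene, and the others include Argonaute genes under older symbols and 4 pseudogenes. Of the whole table, 14926 rows with a gene symbol passed the same filter. Eif4e1b, an eIF4E form known from oocytes, was listed at 0.0463 and 0.150 FPKM in Hb9 control and A2 SMA MNs, and pairs of values follow this order throughout. Eif2c5 was listed at 0.189 and 0.233 FPKM, and these 2 genes were left out of the counts that follow. The row with the symbols Eif4e3 and Eif4e3.1 also carries Foxp1, and was counted once.

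Hb9 control MNs came from the Hb9 mESC line, which the labels call wildtype and the study's methods give as SMN2+/+;mSmn+/+. A2 SMA MNs came from the A2 line, which is SMN2+/+;mSmn-/- and so keeps only the human SMN2 transgene that both lines carry. The lines share the FVB/N background and an HB9:eGFP reporter, in which the promoter of the motor neuron gene Mnx1 drives the fluorescent protein. Both were treated as embryoid bodies for 5 days with 1 µM retinoic acid and 1 µM Smoothened agonist, after which GFP-positive cells that excluded propidium iodide were collected by FACS. Each genotype is represented by 1 line with 3 samples, so genotype and line cannot be told apart.

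Translation starts when the small ribosomal subunit, loaded with the initiator tRNA by the GTP-binding factor eIF2, is recruited by the eIF4 factors to the capped end of an mRNA and scans to the start codon. The eIF3 complex holds this assembly together, eIF1 and eIF1A monitor the codon, and eIF5 and eIF5B complete the joining of the large subunit. During elongation eEF1A delivers aminoacyl-tRNAs to the ribosome and eEF2 moves the ribosome along the mRNA. Neurons and muscle are known to replace the widespread form of eEF1A, made from Eef1a1, by a second form made from Eef1a2.

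The authors' table gives 1 FPKM value per genotype and no value of a single sample. No SD, no test and no count of reads stands behind a value here, and a difference is described by its fold alone. Smn1, the mouse gene deleted in the A2 line, was listed at 137 and 5.26 FPKM in Hb9 control and A2 SMA MNs. The sorted cells also differed in their markers. Of 14 neuron markers, 12 had a row under their symbol, and all 12 passed the filter. Each was at least 2-fold lower in A2 SMA MNs, beside 22.4% of all rows. Their summed level was 1780 and 187 FPKM in Hb9 control and A2 SMA MNs. Of 6 motor neuron markers past the filter, 5 were at least 2-fold lower, beside 22.4% of all rows. Chat went from 15.5 to 0.344 FPKM and Lhx3 from 27.6 to 0.348 FPKM, whereas Mnx1, whose promoter drives the reporter, was listed at 41.2 and 44.2 FPKM. All 12 markers of pluripotent cells were higher in A2 SMA MNs, beside 34.1% of all rows, and their sum was 312 and 1937 FPKM. Of 8 glia markers, 5 passed the filter and all 5 were at least 1.5-fold lower, beside 35.4% of all rows, with sums of 55.9 and 17.0 FPKM. Of 8 markers of fibroblasts, the cells of the feeder layer, 5 were at least 2-fold lower and 1 was at least 2-fold higher. The shares of all rows were 22.4% and 6.83%, and the sums of these markers were 69.6 and 36.6 FPKM. Chat, Lhx3, Lhx4, Syt1, Olig1, Sox10, Lum and Postn passed the filter only through Hb9 control MNs, so they had to be lower to be counted. Thy1, a fibroblast marker, passed only through A2 SMA MNs, so it had to be higher. Most motor neuron markers past the filter were thus lower in RNA in the A2 SMA samples, which does not settle what the cells are. The study reports similar shares of GFP-positive cells from both lines, and staining of plated A2 cells for Tuj1, NeuN, Hb9 and Islet-1. It also cites earlier work in which ChAT, HB9 and neurofilament proteins were not altered. The part of the marker differences in the levels of the translation factors was not tested. Fewer cells of a type and less RNA per cell cannot be told apart in such samples.

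Most members were abundant and close in level between the genotypes. Their median level was 77.2 and 92.6 FPKM in Hb9 control and A2 SMA MNs, against 17.6 and 12.9 FPKM over all rows. The median log2 ratio of A2 SMA over Hb9 control MNs was 0.03 over the members, with quartiles of -0.22 and 0.33. Over the 57 translation factors in rows without another protein-coding gene it was 0.07, with quartiles of -0.16 and 0.33. Over all rows it was -0.29, with quartiles of -0.89 and 0.19. Restricting all rows to the 4282 at or above the members' lower quartile of mean FPKM gave a median of -0.15 with quartiles of -0.55 and 0.19, so that the members' quartiles lay closer together than those of other abundant genes and higher.

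Higher in A2 SMA MNs were 37 of the 67 members (55.2%), beside 34.1% of all rows, and lower were 30 (44.8%), beside 65.9%. Within 1.5-fold of equal levels were 54 of the 67 members (80.6%), beside 51.9% of all rows. At least 1.5-fold lower in A2 SMA MNs were 8 members (11.9%), beside 35.4% of all rows. At least 1.5-fold higher were 5 members (7.46%), beside 12.7% of all rows. For a 2-fold difference, 5 members were lower, where the share of all rows was 22.4%, and 3 were higher, where it was 6.83%. Since the median gene was lower in A2 SMA MNs by 0.29 on the log2 scale, levels were also set against it. Relative to the median gene, 53 members were higher (79.1%, beside 50% of all rows by construction). On that scale 18 were at least 1.5-fold higher, beside 20.8% of all rows, and 6 were at least 1.5-fold lower, beside 25.5%. Within 1.5-fold of the median gene were 43 members (64.2%), beside 53.6% of all rows, a smaller gap than on the deposited scale. At 2-fold, 4 members were higher relative to the median gene and 4 were lower, beside 10.4% and 16.5% of all rows.

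**Figure D1:**
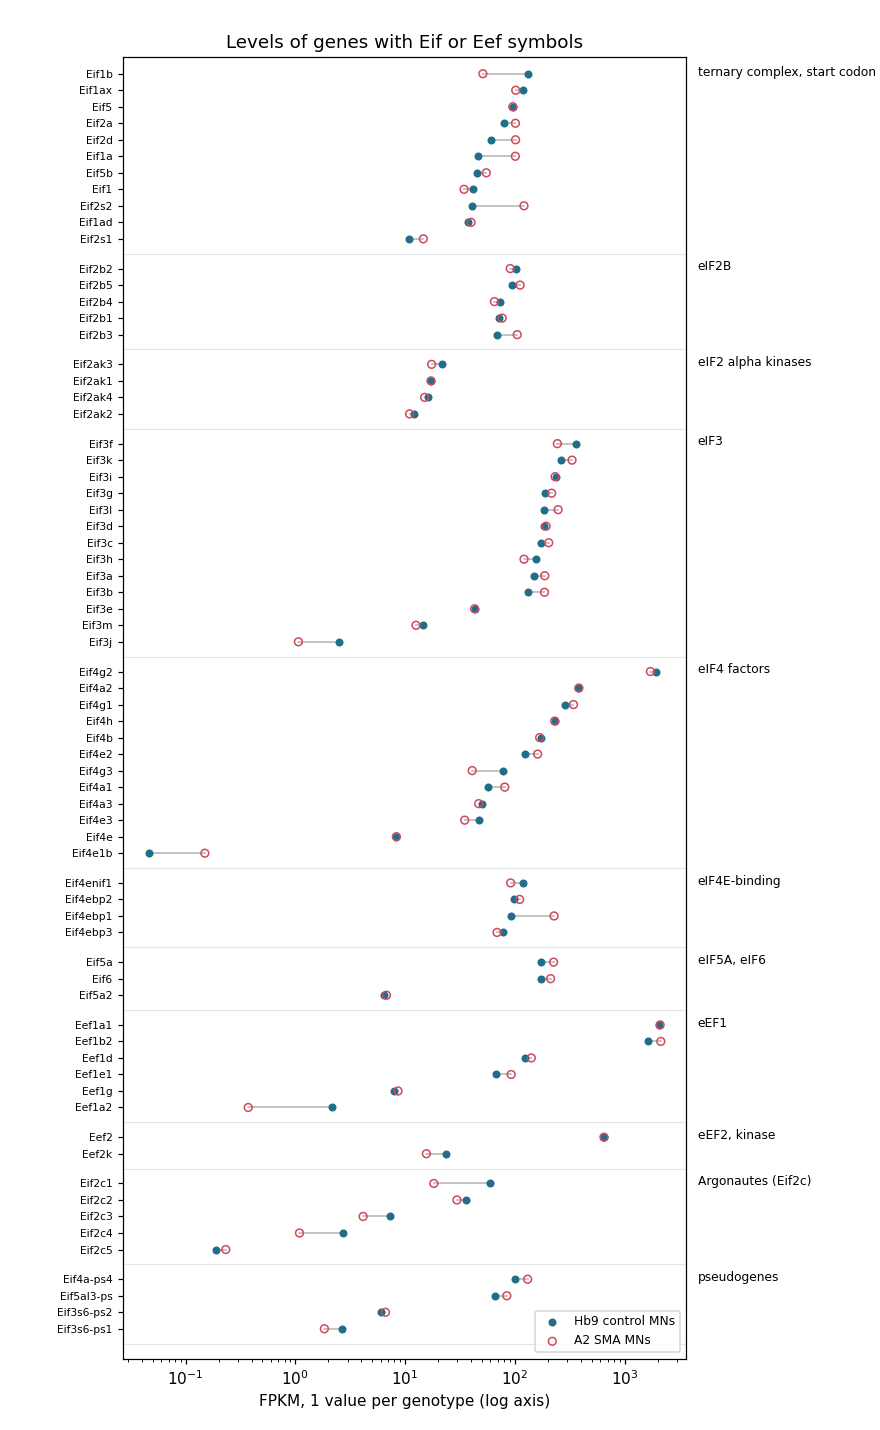
Level of each member in FPKM (horizontal, log axis), with filled points for Hb9 control MNs and open points for A2 SMA MNs, 1 value per genotype and no error, grouped by role. Most pairs of points lie close together, and Eef1a2, at 2.14 and 0.373 FPKM, is the member with the widest gap among those past the filter.

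The eEF1A genes stood at opposite ends of the range of levels. Eef1a1 was listed at 2051 and 2108 FPKM in Hb9 control and A2 SMA MNs, a log2 ratio of 0.04 (0.33 relative to the median gene). Eef1a2 was listed at 2.14 and 0.373 FPKM, 5.75-fold lower in A2 SMA MNs, with a log2 ratio of -2.52 (-2.23 relative to the median gene). This was the lowest log2 ratio of the 67 members. Eef1a2 was under 1 FPKM in A2 SMA MNs and passed the filter only through Hb9 control MNs, so it had to be lower to be counted, and its rank is a description. Because its level was low in both genotypes, the ratio depended on how low values were treated, and a pseudocount of 1 FPKM gave -1.20. In Hb9 control MNs Eef1a1 was 957-fold above Eef1a2, and in A2 SMA MNs 5659-fold. Eef1a2 thus supplied 0.104% of the summed eEF1A level in Hb9 control MNs and 0.0177% in A2 SMA MNs, while the sum itself was 2053 and 2109 FPKM. Of 9 markers of muscle, the other tissue known for Eef1a2, 2 passed the filter, Actc1 and Myh7, and these summed to 6.69 and 2.19 FPKM. Myh7, at 1.10 and 0.297 FPKM, passed only through Hb9 control MNs, so it had to be lower to be counted. The other markers of muscle were under 1 FPKM in both genotypes, some lower and some higher, or had no row.

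In the table Eef1a1 lies on chromosome 9 from 78326256 to 78336958 and Eef1a2 on chromosome 2 from 180882358 to 180891719 (NCBI m37). In GENCODE release M21 the coding sequences of the pair are 80.1% identical, with 1113 of 1389 aligned bases the same, and of the 1340 windows of 50 bases, the read length, none is shared exactly. The stretches of 30 coding bases below, from GENCODE transcripts on GRCm38, are those with the fewest, the median and the most differences among 1176 such stretches. They are shown because a short read can be assigned to the rare or to the abundant gene only by such differences. Capitals mark the bases that differ between the pair, and both genes lie on the minus strand.
Eef1a1, coding bases 100 to 129 (chr9:78480526-78480555): atcgacaagcgAaccatcgaAaagtttgag
Eef1a2, coding bases 100 to 129 (chr2:181155278-181155307): atcgacaagcgGaccatcgaGaagtttgag
Eef1a1, coding bases 10 to 39 (chr9:78480616-78480645): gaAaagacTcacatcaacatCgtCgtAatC
Eef1a2, coding bases 10 to 39 (chr2:181155368-181155397): gaGaagacAcacatcaacatTgtGgtCatT
Eef1a1, coding bases 648 to 677 (chr9:78479719-78479748): CACCcgCaaAgaTggCaGtgcCagTggcAC
Eef1a2, coding bases 648 to 677 (chr2:181151014-181151043): AGAGcgTaaGgaAggAaAtgcAagCggcGT
The pair differed at 2, 6 and 13 of the 30 bases in these stretches. Eef1a1 does share 60.6% of its windows with other genes, 21 in number, whereas Eef1a2 shares none. The Eef1a1 pseudogene with the most of these windows and a row of its own, Gm13456, was listed at 2.62 and 2.63 FPKM in Hb9 control and A2 SMA MNs.

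The other members of the eEF1 group encode the exchange complex that recharges eEF1A with GTP, together with Eef1e1, a partner of the aminoacyl-tRNA synthetases. Eef1b2, the exchange subunit, was listed at 1650 and 2137 FPKM, and was one of the 3 members above 1000 FPKM in both genotypes. Eef1d was listed at 123 and 141 FPKM, and Eef1e1 at 67.3 and 92.6 FPKM. Each was higher in A2 SMA MNs by less than 1.5-fold. Eef1g was listed at only 8.0 and 8.63 FPKM, far below the other subunits of its complex, and 64.3% of its windows occur in other genes. The 6 genes summed to 3901 and 4489 FPKM, and 5 of them were higher in A2 SMA MNs, beside 34.1% of all rows. Eef2 was level at 644 and 648 FPKM. Eef2k, the kinase that inactivates eEF2, was 1.52-fold lower, at 23.8 and 15.6 FPKM, a log2 ratio of -0.61 that lay within 1.5-fold of the median gene (-0.32).

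**Figure D2:**
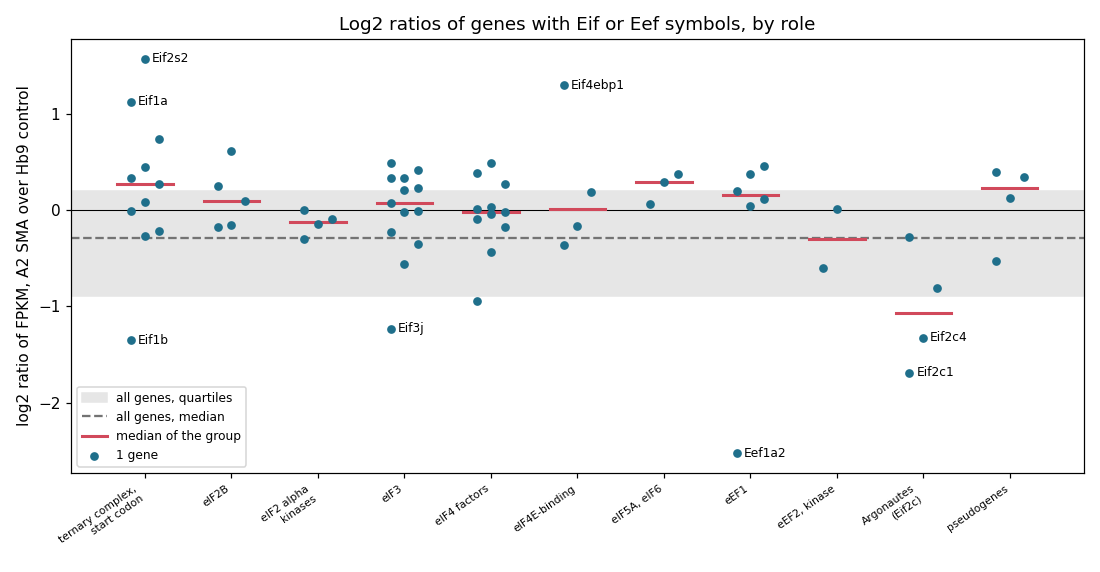
Log2 ratio of FPKM, A2 SMA over Hb9 control MNs (vertical), for the 67 members past the filter, grouped by role, 1 point per gene and a bar at each group's median. The grey band spans the quartiles of all rows (-0.89 and 0.19) and the dashed line their median (-0.29), and members at least 2-fold apart are named, of which Eef1a2 is lowest and Eif2s2 highest.

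The factors that load the initiator tRNA and select the start codon held the widest spread outside the eEF1 group. Of 11 genes, 7 were higher and 4 lower in A2 SMA MNs, beside 34.1% and 65.9% of all rows, with a median log2 ratio of 0.27 (0.56 relative to the median gene). Relative to the median gene, Eif1 (0.02), Eif1ax (0.08) and Eif5 (0.28) were higher as well. Of these genes only Eif1b (-1.06) was lower on that scale, beside 50% of all rows by construction. Eif2s2, the beta subunit of eIF2, had the highest log2 ratio of all members past the filter. It was listed at 40.7 and 121 FPKM in Hb9 control and A2 SMA MNs, 2.98-fold higher with a log2 ratio of 1.57. A further row with the same symbol and the same locus was listed at 18.8 and 59.7 FPKM, a log2 ratio of 1.67. The locus given for these rows, on chromosome 2 from 154616797 to 154876748 (NCBI m37), is 12.1 times as long as the gene in GENCODE. The alpha subunit gene Eif2s1, whose product is the target of the stress kinases, was listed at 10.8 and 14.7 FPKM, a log2 ratio of 0.45.

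Within the related genes for eIF1 and for eIF1A the share of each gene differed between the genotypes. Eif1a, which encodes a form of eIF1A, was 2.18-fold higher in A2 SMA MNs, at 46.4 and 101 FPKM. The X-linked Eif1ax was listed at 118 and 102 FPKM. The share of Eif1a in the sum of the pair was therefore 28.2% in Hb9 control MNs and 49.8% in A2 SMA MNs. Eif1b, a close relative of Eif1, was 2.55-fold lower, at 131 and 51.2 FPKM, and Eif1 was listed at 41.5 and 34.4 FPKM. The share of Eif1b in their sum was 75.9% in Hb9 control MNs and 59.8% in A2 SMA MNs, while the sum went from 172 to 85.6 FPKM. The coding sequences are 81.3% identical for Eif1 and Eif1b and 85.5% for Eif1ax and Eif1a, and neither pair shares a coding window of 50 bases. Eif1 does share 31.6% of its windows with other genes, 18 in number, against 0.81% for Eif1b, so the level of Eif1 and the shares that rest on it carry that limit.

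Eif2d, a factor that can bring tRNA to the ribosome without eIF2, was 1.67-fold higher in A2 SMA MNs, at 60.9 and 102 FPKM. Eif2a, another factor outside the eIF2 trimer, was listed at 80.3 and 101 FPKM. Eif5, which triggers GTP hydrolysis by eIF2, was level at 96.3 and 95.9 FPKM, and Eif5b was listed at 45.5 and 54.9 FPKM. Eif1ad, whose product has an eIF1A-like domain, was listed at 37.7 and 39.9 FPKM.

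The guanine nucleotide exchange factor eIF2B recycles eIF2 and is the point at which stress signals act on initiation. Its 5 subunit genes lay between 68.5 and 102 FPKM in Hb9 control MNs and between 65.1 and 112 FPKM in A2 SMA MNs. Eif2b3 was 1.53-fold higher, at 68.5 and 105 FPKM. The most abundant by the mean of both genotypes, Eif2b5, was listed at 93.7 and 112 FPKM and the lowest ratio was that of Eif2b2, at 102 and 90.8 FPKM. The 4 kinases that phosphorylate the alpha subunit of eIF2 were all within 1.5-fold, beside 51.9% of all rows. Eif2ak3, the kinase of the endoplasmic reticulum, had the lowest log2 ratio of these (-0.30, at 21.5 and 17.5 FPKM), and Eif2ak1, the haem-regulated kinase, the highest (0.00094, at 17.2 FPKM in both). The median of the kinases was -0.12 as deposited but 0.17 relative to the median gene.

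The eIF3 complex, the largest initiation factor, held 1 gene past 1.5-fold on the deposited scale, Eif3j. Of its 13 genes, 7 were higher and 6 lower, beside 34.1% and 65.9% of all rows, and 1 was at least 1.5-fold lower, beside 35.4%. Their sum was 2085 and 2221 FPKM. Their median log2 ratio was 0.07, or 0.36 relative to the median gene. Without the rows whose status is FAIL, by which Cuffdiff marks a comparison that it could not complete, the median was -0.01 as deposited. Relative to the median gene, Eif3a (0.62), Eif3k (0.63), Eif3l (0.70) and Eif3b (0.78) were at least 1.5-fold higher, beside 20.8% of all rows. Eif3j was at -0.94 on that scale. Eif3j, a loosely bound subunit, was 2.35-fold lower at the lowest level of the group, 2.51 and 1.07 FPKM. Eif3f was the most abundant by the mean of both genotypes, at 359 and 244 FPKM, and with a log2 ratio of -0.56 it was the member nearest to the 1.5-fold limit from inside. Eif3b, a core subunit, had the highest log2 ratio, 0.49, at 133 and 186 FPKM in a row with the status FAIL. Of the other subunit genes Eif3l was listed at 186 and 248 FPKM, Eif3k at 263 and 332 FPKM and Eif3h at 155 and 121 FPKM.

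The levels of the eIF3 genes differed by more than their ratios did. Since the products form 1 complex, the levels per length were set beside the share of each transcript that also occurs in other genes, counted in windows of 50 bases. The 4 subunit genes with at least 20% of windows shared (Eif3e, Eif3h, Eif3j and Eif3m) were listed at 2.51 to 155 FPKM in Hb9 control MNs. The 9 others were listed at 133 to 359 FPKM. These ranges overlapped. In A2 SMA MNs the ranges were 1.07 to 121 and 186 to 332 FPKM, which did not overlap at this cut. Eif3d, just under the cut with 18.4% of windows shared, was listed at 183 and 193 FPKM. The gap in A2 SMA MNs thus depended on where the cut was placed. For Eif3m, with 40.0% of windows shared, the table gave 14.7 and 12.6 FPKM, while its pseudogene Gm7658 was listed at 72.6 and 67.4 FPKM. For Eif3j the paralogue Gm9781 was listed at 11 and 15.1 FPKM, higher in A2 SMA MNs where Eif3j was lower. How reads that match several genes were assigned is not given in the sources used here, and its part in these levels was not tested.

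**Figure D3:**
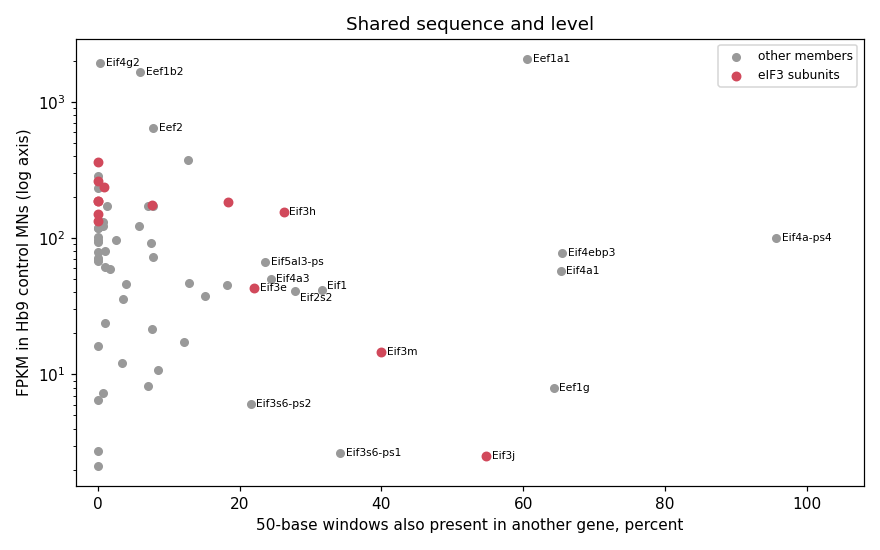
FPKM in Hb9 control MNs (vertical, log axis) against the percentage of 50-base transcript windows that also occur in another gene (horizontal), 1 point per member past the filter with a matched transcript, and eIF3 subunits in red. The eIF3 subunits with 20% or more lie between 2.51 and 155 FPKM and the others between 133 and 359 FPKM, and Eef1a1 combines 60.6% with 2051 FPKM.

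The same comparison over all members gave lower levels with more sharing. The 20 members past the filter without a shared window had a median of 99.9 FPKM in Hb9 control MNs, and the 26 with under 10% had 94.5 FPKM. The median was 46.3 FPKM for the 6 with 10 to 20% and 43.2 FPKM for the 15 with at least 20%. The ratios between the genotypes were not ordered in this way, with medians of 0.08, 0.01, 0.05 and -0.01 on the log2 scale. The members are few and differ in function, so these values are a description.

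The cap-binding and helicase factors of the eIF4 group were mostly within 1.5-fold. Of 11 rows past the filter, 10 were within 1.5-fold, beside 51.9% of all rows, and the median log2 ratio was -0.02 as deposited, 0.01 without the rows with the status FAIL and 0.27 relative to the median gene. Eif4g2, which encodes a scaffold that lacks the cap-binding region and serves other modes of initiation, was the most abundant, at 1939 and 1719 FPKM. The main scaffold gene Eif4g1 was listed at 284 and 342 FPKM. Its relative Eif4g3 was 1.92-fold lower in A2 SMA MNs, at 78.5 and 40.9 FPKM, so that its share of the sum of the pair was 21.6% in Hb9 control MNs and 10.7% in A2 SMA MNs. The share of Eif4g2 beside Eif4g1 was 87.2% and 83.4%, and the rows of Eif4g1 and Eif4g2 have the status FAIL.

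The helicase gene Eif4a2 was level at 374 and 383 FPKM. Eif4a1 had the highest log2 ratio of the group, 0.49, at 57.5 and 81.0 FPKM, and stood just inside the 1.5-fold limit. Eif4a2 thus made up 86.7% of their sum in Hb9 control MNs and 82.6% in A2 SMA MNs. The level of Eif4a1 comes with a limit, since 65.3% of its windows occur elsewhere and its pseudogene Eif4a-ps4 was listed above it, at 99.3 and 131 FPKM. Eif4a3, a helicase of the exon junction complex, was listed at 49.9 and 46.9 FPKM. Eif4b and Eif4h, which stimulate the helicase, were listed at 173 and 168 FPKM and at 233 and 231 FPKM.

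The cap-binding protein itself was a gene of low level. Eif4e was listed at 8.26 and 8.33 FPKM, below its pseudogene Gm7327 at 14.6 and 17.8 FPKM. Eif4e2, a cap-binding relative linked to repression, was listed at 124 and 161 FPKM, or 93.7% and 95.1% of the sum of the pair. The row that Eif4e3 shares with Foxp1 was listed at 47.1 and 34.9 FPKM, and the part of each gene in it cannot be told apart.

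The proteins that bind eIF4E and keep it from the scaffold held 1 of the 3 genes that were at least 2-fold higher. Eif4ebp1, the best known target of the kinase mTOR in this group, was 2.46-fold higher in A2 SMA MNs, at 92.6 and 228 FPKM, with a log2 ratio of 1.30 (1.59 relative to the median gene). It lies on chromosome 8 from 28370799 to 28386128 (NCBI m37). Eif4ebp2, the form known from brain, was listed at 97.4 and 111 FPKM in a row with the status FAIL. Its share of the sum with Eif4ebp1 was 51.2% in Hb9 control MNs and 32.7% in A2 SMA MNs. Eif4enif1, which carries eIF4E to the nucleus, was listed at 118 and 91.6 FPKM. The row of Eif4ebp3, which also holds the larger gene Ankhd1, was listed at 77.2 and 68.9 FPKM. The median of the 4 rows was 0.01, but -0.17 without the row with the status FAIL and 0.30 relative to the median gene.

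**Figure D4:**
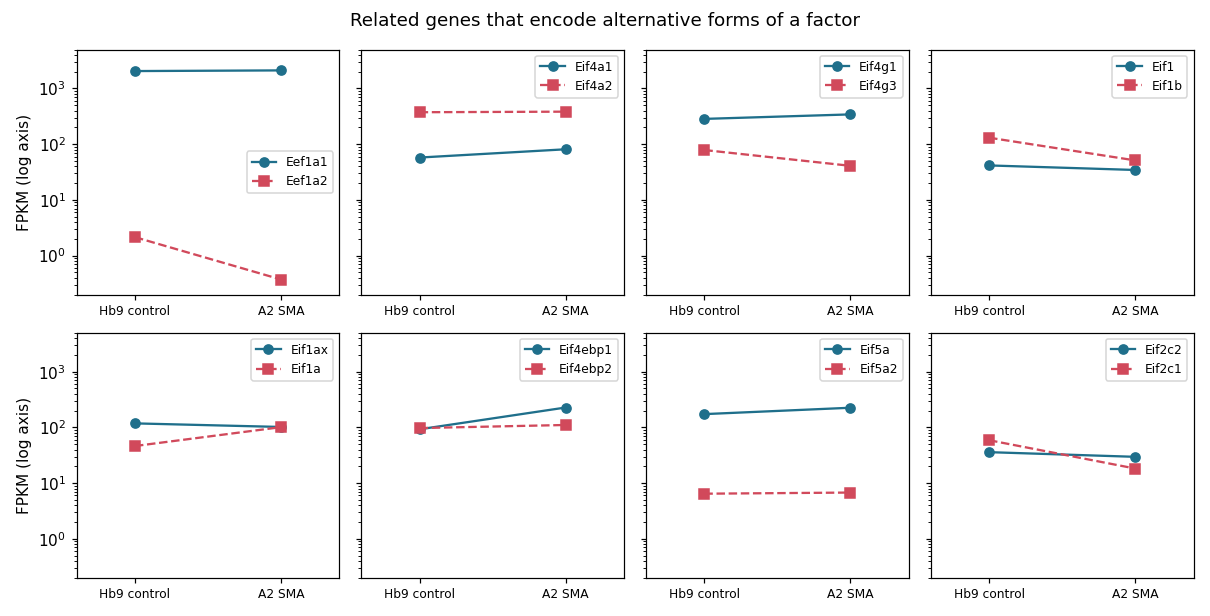
FPKM (vertical, log axis) in Hb9 control and A2 SMA MNs for 8 pairs of related genes, 1 value per genotype and no error, with lines that join the values of a gene. The lines diverge for Eef1a1 and Eef1a2 and for Eif4g1 and Eif4g3, converge for Eif1ax and Eif1a, and cross for Eif4ebp1 and Eif4ebp2 and for Eif2c2 and Eif2c1.

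Eif5a, which helps the ribosome past difficult peptide bonds and carries the amino acid hypusine, was listed at 173 and 225 FPKM. Eif5a2, its relative, was listed at 6.46 and 6.78 FPKM and supplied 3.60% of their sum in Hb9 control MNs and 2.92% in A2 SMA MNs. Eif6, which keeps the ribosomal subunits apart, was listed at 173 and 212 FPKM. All 3 genes were higher in A2 SMA MNs by less than 1.5-fold, beside 34.1% of all rows higher and 51.9% within 1.5-fold. Of the 4 pseudogenes that the rule includes, 3 were higher and all 4 were within 1.5-fold, beside the same shares of all rows, with the highest log2 ratio in Eif4a-ps4 (0.40) and the lowest in Eif3s6-ps1 (-0.53, at 2.66 and 1.84 FPKM).

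The 5 genes with the older symbols Eif2c encode Argonaute proteins, which act in RNA silencing and are not translation factors. The 4 past the filter were all lower in A2 SMA MNs, beside 65.9% of all rows, and 3 of them by at least 1.5-fold, beside 35.4%. With 4 genes these counts are a description. Eif2c1 was 3.22-fold lower, at 59.0 and 18.3 FPKM, and its row has the status FAIL. Eif2c4 was 2.51-fold lower at a low level, 2.74 and 1.09 FPKM, and Eif2c3, also with the status FAIL, went from 7.25 to 4.15 FPKM. Eif2c2, which encodes the Argonaute that cuts its targets, was listed at 36.0 and 29.7 FPKM. Relative to the median gene Eif2c2 was at 0.01, so that on this scale it was not lower, and Eif2c3 was at -0.52. The share of Eif2c1 in its sum with Eif2c2 was 62.1% in Hb9 control MNs and 38.2% in A2 SMA MNs. Beside Eif2c2, the share of Eif2c3 was 16.8% and 12.3%, and that of Eif2c4 7.08% and 3.55%. Without the Argonaute genes, 5 of 63 members were at least 1.5-fold lower and the median log2 ratio of the members was 0.07.

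Other genes of translation were counted on the deposited scale only, against the same shares of all rows, 12.7% for at least 1.5-fold higher and 35.4% for lower. Of 8 genes of termination and ribosome recycling 1 was at least 1.5-fold apart, Etf1, the release factor that reads stop codons, at 100 and 178 FPKM (log2 ratio 0.83). The lowest of that list was Mcts1, a recycling factor, at -0.58. Relative to the median gene, Abce1, Gspt1 and Denr, at 0.38, 0.31 and 0.30 as deposited, would also pass 1.5-fold. Of 7 poly(A)-binding proteins and partners, Paip2b was higher, at 29.7 and 47.3 FPKM, and Paip1 was lower, at 144 and 88.9 FPKM in a row with the status FAIL. Of 9 mitochondrial factors 1 was lower, the recycling factor Mrrf (-0.62), and the highest was the elongation factor Gfm1 (0.43), in a row with the status FAIL.

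Of 25 regulators of initiation and elongation, 1 was at least 1.5-fold higher and 3 were lower. The higher was Dohh, the enzyme that completes the hypusine of eIF5A, at 54.3 and 86.9 FPKM (log2 ratio 0.68). The lowest was Ddit3, a transcription factor induced by the stress response that acts through eIF2, at 64.3 and 32.5 FPKM (-0.98). Atf4, whose translation rises when eIF2 is phosphorylated, was listed at 230 and 323 FPKM (0.49), and Mtor, the kinase upstream of Eif4ebp1, at 46.8 and 32.3 FPKM (-0.54). Bzw2, in a row with the status FAIL, and Mknk1 were the other lower genes, both at -0.59.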

How the data were processed

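RNA-Seq of 6 samples, 3 per genotype and numbered 1 to 3 in the labels, was analysed from the gene-level comparison. The authors checked reads with FastQC 0.10.1, trimmed them with CutAdapt, mapped them with TopHat2 2.04 to NCBI m37 with Ensembl annotation, and made transcripts and FPKM values with Cufflinks and Cuffdiff, whose versions are not given in the sources used here. The deposited FPKM values, 1 per row and genotype, were used, so that samples could not be compared or left out and the table gives no reads behind a value. The columns of log2 fold change, test statistic, p, q and significance were not used.

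The members and lists were chosen with earlier results of these data known. For each symbol the row with the highest FPKM was taken. Log2 ratios were formed without a pseudocount over rows with at least 1 FPKM in either genotype and above 0 in both, and 1.5-fold and 2-fold limits stood in for a test. Starts of loci, which the table counts from 0, were raised by 1. Named genes were the Eef1a pair, the most abundant, highest and lowest member of each role, members 2-fold apart that reach 5 FPKM, related pairs, and the ends of each other list. Other members were named with values to account for their role groups, outside this rule and after their values were seen. The same holds for Atf4, Mtor, Bzw2, Mknk1, Abce1, Gspt1, Denr, single cell type markers and the copies. Windows of 50 bases, on both strands, came from the longest basic transcript (protein-coding where there is one) of 69 matched members in GENCODE M21, whose build is GRCm38. Python 3.11.15, numpy 2.4.6, pandas 2.3.3, Biopython 1.88 and matplotlib 3.10.9 were used, and the scripts were tested on simulated data. Scaling, pseudocounts, filters, summed rows, shared rows, the status FAIL and the choice of members were varied.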

Additional observations from a re-analysis of the deposited data

How the results depend on the processing

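No paired analysis was possible because the table gives 1 value per genotype although the labels number the samples 1 to 3, and for the same reason no sample could be left out. Setting the median gene to equal levels moved the median log2 ratio of the members to 0.32, the count at least 1.5-fold higher to 18, Eef1a1 to 0.33 and Eef1a2 to -2.23. Scaling to the upper quartile gave 0.32, 18, 0.33 and -2.24. Eef1a2 was at -2.25 with a pseudocount of 0.1 FPKM and at -1.20 with 1 FPKM. The count at least 1.5-fold lower was 5 with a filter of 5 FPKM, 5 without the Argonaute genes, and 5 with protein-coding factors in rows without another protein-coding gene, an alternative chosen after seeing the data, as was that of members with under 10% of windows shared. Each of these leaves genes out by construction. None of the other 49 values over these results and alternatives moved beyond 0.1 on the log2 scale or 1.5-fold for a count or share, and none changed sign. Of 10 role groups, 6 had a median above 0, and 5 to 8 over the alternatives. Rows limited to 1 symbol gave no value for Eef1a1, whose row also carries a miRNA. The table gives no reads per gene, so no counting error is given for low members such as Eef1a2, Eif3j and Eif2c4.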

Other observations

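Copies of the members with rows of their own were counted. There were 15 such copies at 1 FPKM or more, for 14 members, and 5 of them were listed above their member in both genotypes. Gm9892, the pseudogene of Eif2s2, was listed at 95.6 and 310 FPKM in Hb9 control and A2 SMA MNs, a log2 ratio of 1.70 beside 1.57 for Eif2s2. Gm13050, a pseudogene of Eef2, was listed at 230 and 227 FPKM, and Eif5al3-ps, a relative of Eif5a, at 66.6 and 84.6 FPKM. The log2 ratio of 14 of the 15 copies was within 1.5-fold of that of the member, and the exception was Gm9781, the paralogue of Eif3j. A copy and its member share windows of sequence, so their rows are not independent measurements.

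Of the 69 members with a matched gene, 11 had a locus in the table over 2 times as long as the gene in GENCODE. The longest in these terms were the rows of Eif4ebp3 (57.0 times) and Eif4e3 (17.8 times), which hold other genes, followed by Eif2s2 (12.1 times) and Eif3m (8.61 times), whose rows carry 1 symbol. The status FAIL was carried by 15 of the 67 members past the filter (22.4%), beside 14.0% of all rows. They were Eef1d, Eef2, Eif2a, Eif2ak3, Eif2ak4, Eif2c1, Eif2c3, Eif3b, Eif3d, Eif4b, Eif4ebp2, Eif4g1, Eif4g2, Eif4h and Eif5.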
